A study of Mus musculus with 6 samples.

Results

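The myelin genes described here are Mbp, Mobp, Mal, Cldn11, Mog, Mag, Cnp, Ugt8a and Myrf, 9 of the 24553 genes and unmatched rows of the deposited count table. They were chosen by name, and for each the RefSeq transcript rows that carry its symbol were summed. All 9 had counts and all 9 passed the low-count filter, which kept 11969 genes. Myelin is the stack of membrane that oligodendrocytes wrap around axons in the brain, and it lets an impulse jump from node to node. Its compact layers are held together by a small set of abundant proteins and are rich in galactolipids, while glycoproteins on its inner and outer faces touch the axon and the surroundings. The genes for these proteins are switched on when an oligodendrocyte matures, under transcription factors that include Sox10 and Myrf. A stroke in the cortex can damage the axons and oligodendrocytes near the lesion, and precursor cells can later form new oligodendrocytes.

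The tissue was the cortex of male C57BL/6J mice, taken from 15-week-old animals 14 days after a stroke. The groups were 3 libraries from mice that drank short-chain fatty acids (SCFA) and 3 libraries from mice that drank a salt-matched control, and the comparison asks how SCFA alters the transcripts of the cortex after stroke. Drinking began between 6 and 8 weeks of age and lasted 4 weeks, and all the mice, controls included, also had 4 antibiotics (vancomycin, ampicillin, metronidazole and neomycin) and 5% sucrose in their water. The sources used here do not say which hemisphere was sampled or how near the lesion, and no library of unlesioned cortex was analysed here. The design text gives 3 mice per group and the labels give replicate numbers, so the p-values measure the spread between these samples.

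The 6 libraries held 9275252 to 13862756 counts, and a single row with no gene symbol took 34.98% to 46.28% of them in SCFA libraries and 37.69% to 55.32% in control libraries. In each group 1 library stood apart. On the first principal component control 2 lay at 109.2 and the other 5 libraries between -25.77 and -17.74, and control 2 had counts in 13600 rows against 15988 to 16941 elsewhere. SCFA 2 lay at -51.59 on the second component, next to -9.537 for SCFA 3. Levels are given in CPM (each count divided by the library's size and scaled to a common total) with TMM-scaled library sizes, on which 3 counts in a library stood for 0.206 to 0.346 CPM. That floor covers counting error only.

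What a count stands for differed between the 9 genes, because the table counts transcripts. Mog, Mag, Cldn11, Ugt8a and Myrf had 1 row each. Mbp had 8 rows, and Mobp, Cnp and Mal had 2 each. Of these 19 rows 10 had counts and 9 stood at 0 in all 6 libraries. The sources used here do not say what became of reads shared by several transcripts. Each row was therefore paired with its GENCODE transcript, and the exonic bases that no other paired row of the table covers were counted as its own bases. Across the genes of several rows whose rows each had a transcript to themselves, 2264 of 2305 rows without any own base (98.2%) stood at 0, against 27.2% of the rows with more than 1000 own bases. Of rows that were the only row of their gene, 21.0% stood at 0. The level of a gene with several rows may thus cover only part of its transcripts, and a row at 0 was not read as absence of its transcript.

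For Mal and Mobp the own bases of the counted row include stretches of coding sequence, shown here because only a read on own bases can be given to 1 row without doubt. Mal (gene at chr2:127633226-127656695) encodes a small membrane-spanning proteolipid of compact myelin. All 177 of its counts fell on NM_010762, which has 2292 own bases, 168 of them coding, at chr2:127640221-127640388 on the minus strand (all positions on GRCm38). NM_001171187, with 0 own bases, had 0 counts. Mobp (gene at chr9:120149742-120181488) encodes a basic protein of compact myelin. All 1022 of its counts fell on NM_001039365, which has 1191 own bases, 304 of them coding, and NM_008614 had 0 counts. The own bases of NM_008614, a transcript of 3286 exonic bases, were not determined because another row, also at 0, was paired with the same GENCODE transcript. The first 280 coding bases of NM_001039365 that are its own lie at chr9:120168223-120168502 on the plus strand. In both transcripts, read 5′ to 3′ from GENCODE M21, capitals mark the bases that no other row covers, and the 20 lower-case bases at an edge are shared.
Mal NM_010762: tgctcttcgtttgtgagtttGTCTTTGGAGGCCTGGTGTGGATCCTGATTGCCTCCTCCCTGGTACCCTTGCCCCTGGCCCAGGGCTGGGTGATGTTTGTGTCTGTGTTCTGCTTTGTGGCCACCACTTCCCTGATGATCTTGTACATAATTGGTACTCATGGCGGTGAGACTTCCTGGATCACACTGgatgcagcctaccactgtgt
Mobp NM_001039365: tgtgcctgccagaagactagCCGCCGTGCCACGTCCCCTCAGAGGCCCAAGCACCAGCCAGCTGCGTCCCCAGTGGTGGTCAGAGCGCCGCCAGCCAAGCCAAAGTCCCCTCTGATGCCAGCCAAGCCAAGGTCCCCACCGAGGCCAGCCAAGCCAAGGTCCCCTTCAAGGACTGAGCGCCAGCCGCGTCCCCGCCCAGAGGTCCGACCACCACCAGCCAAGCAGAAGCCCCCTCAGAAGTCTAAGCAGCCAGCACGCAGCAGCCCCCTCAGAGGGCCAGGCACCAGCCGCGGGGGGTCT

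Mbp (gene at chr18:82475091-82585637) encodes myelin basic protein, which seals the inner faces of compact myelin, and it also encodes the longer golli proteins from a start far upstream. All 1574 Mbp counts fell on NM_001025245, a transcript that begins at chr18:82475146, 79.3 kb before the first start of the classic myelin transcripts at 82554470. The 6 rows with a classic start and the other row with the upstream start, NM_010777, stood at 0, and each had 0 own bases. Of the 3969 own bases of NM_001025245, 99.6% lay in its last exon between 82554751 and 82558703. That stretch lies inside the first intron of the classic transcripts, whose first exon ends at 82554750 and whose next exon begins at 82561778. The classic myelin transcripts were therefore not measured apart from the rest, and the longer transcript and unspliced classic RNA cannot be told apart in this value.

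**Figure D1:**
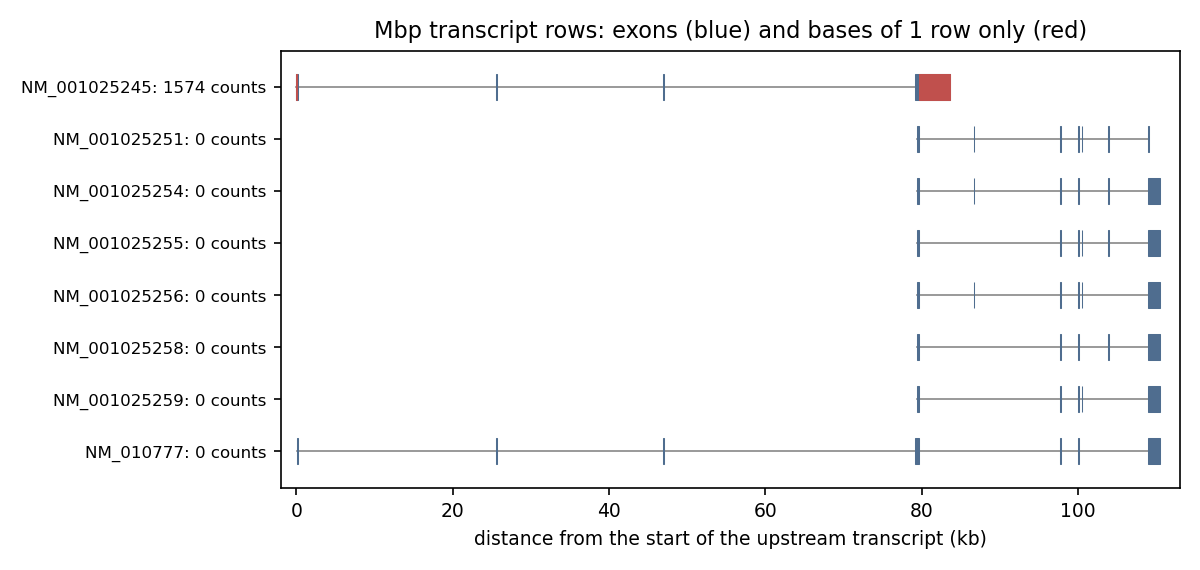
The 8 Mbp rows are drawn by their GENCODE transcripts, with distance from the start of the upstream transcript in kb on the horizontal axis, exons in blue and bases covered by 1 row alone in red. The 1 row with counts, 1574 in all over the 6 libraries, is the row with the long red stretch, and the 7 rows at 0 have none.

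Cnp (gene at chr11:100574909-100591875) encodes a phosphodiesterase of the non-compact myelin layers, and its 2 rows shared its counts almost evenly, 304 on NM_001146318 and 302 on NM_009923. Both rows were paired with a single GENCODE transcript, so their own bases were not determined. The share on NM_001146318 was 44.7% (exact binomial 95% interval 30.2 to 59.9), 50.3% (42.7 to 57.9) and 38.8% (29.4 to 48.9) in SCFA 1 to 3. In controls 1 to 3 it was 83.0% (73.4 to 90.1), 49.4% (38.4 to 60.5) and 36.8% (27.6 to 46.7). Control 1 stood above the other 5 libraries, whose intervals all overlapped one another and none of which reached that of control 1. The intervals cover counting error only, and apart from control 1 the groups overlapped. Tested as separate rows, NM_001146318 had a log2 fold change of -0.37 (SE 0.534) and NM_009923 one of 0.08 (SE 0.62), with adjusted p = 0.96 and 0.989 by edgeR's quasi-likelihood test.

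**Figure D2:**
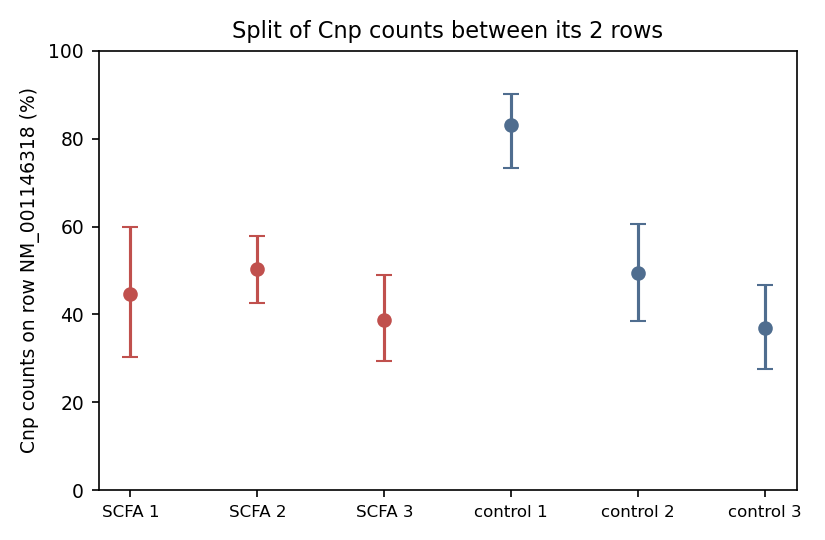
The share of Cnp counts on the row NM_001146318, in percent, is plotted for each library with its exact binomial 95% interval. The 3 SCFA libraries lie at 38.8% to 50.3%, and of the controls 2 lie at 36.8% and 49.4% while control 1 lies at 83.0%.

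The genes were set against each other per kilobase of own bases. For Mbp, Mobp and Mal this assumes that reads on shared bases were not counted, which the sources used here do not state. On this scale Cldn11 stood highest. It had 30.9 ± 11.2 CPM per kb in SCFA cortex and 29.5 ± 4.36 CPM per kb in control cortex (SD, n = 3 each). Mag followed with 16.2 ± 5.86 CPM per kb in SCFA and 12.3 ± 5.28 in control cortex, then Mobp with 10.3 ± 3.44 in SCFA and 14.6 ± 3.07 in control cortex. Mog had 13.2 ± 2.67 CPM per kb in SCFA cortex and 11.4 ± 2.51 in control cortex. Below these 4 came the enzyme gene Ugt8a with 7.08 ± 0.638 CPM per kb in SCFA and 8.5 ± 2.16 in control cortex. The transcription factor gene Myrf had 6.33 ± 3.42 CPM per kb in SCFA and 5.24 ± 0.519 in control cortex. Mbp, on the row NM_001025245 alone, had 6.18 ± 0.838 CPM per kb in SCFA and 5.3 ± 1.43 in control cortex. Mal was lowest at 1.24 ± 0.205 CPM per kb in SCFA cortex and 0.876 ± 0.77 in control cortex. In the order by the mean of the 6 libraries, each gene overlapped its neighbour in range, except that the 3.66 to 7.08 CPM per kb of Mbp lay wholly above the 0 to 1.45 of Mal. Cldn11 exceeded Mag in each library, although its range of 22 to 43.5 met the 8.33 to 22.6 of Mag at the edge. The paired Myrf transcript is almost all coding (3336 of 3339 bases), so the Myrf counts were divided by coding length alone. That transcript reaches down to 10210385 on chr19, while the gene reaches 10208271. If the counted row holds noncoding bases, the Myrf level per kb is too high, and its place next to Mbp is not settled. A level for Cnp could not be given per length.

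With SCFA, 0 of the 9 myelin genes passed the test in either direction, where 1 of 11969 genes (0.00835%) was higher and 9 (0.0752%) were lower at an adjusted p under 0.05 by edgeR's quasi-likelihood test with Benjamini-Hochberg adjustment. At an unadjusted p under 0.05 the count was also 0 of 9, by edgeR, DESeq2 and limma-voom, beside 2.97% of all genes higher and 2.79% lower by edgeR. The SCFA and control libraries overlapped for each of the 9, whereas 6.42% of genes had every SCFA library above every control and 5.74% every SCFA library below. The log2 fold change, SCFA over control, was above 0 for 6 of the 9, against 50.9% of all genes. Its median was 0.21 over the 9 genes and 0.01 over all genes. In these counts, and in the sums and scores below, Mbp enters by NM_001025245 alone. Without SCFA 2 the median was -0.14, and without both SCFA 2 and control 2 it was -0.17 with 2 of 9 above 0, so no common direction is given for the 9. In these bulk samples, a difference in the number of oligodendrocytes and one in RNA per oligodendrocyte could not be told apart.

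**Figure D3:**
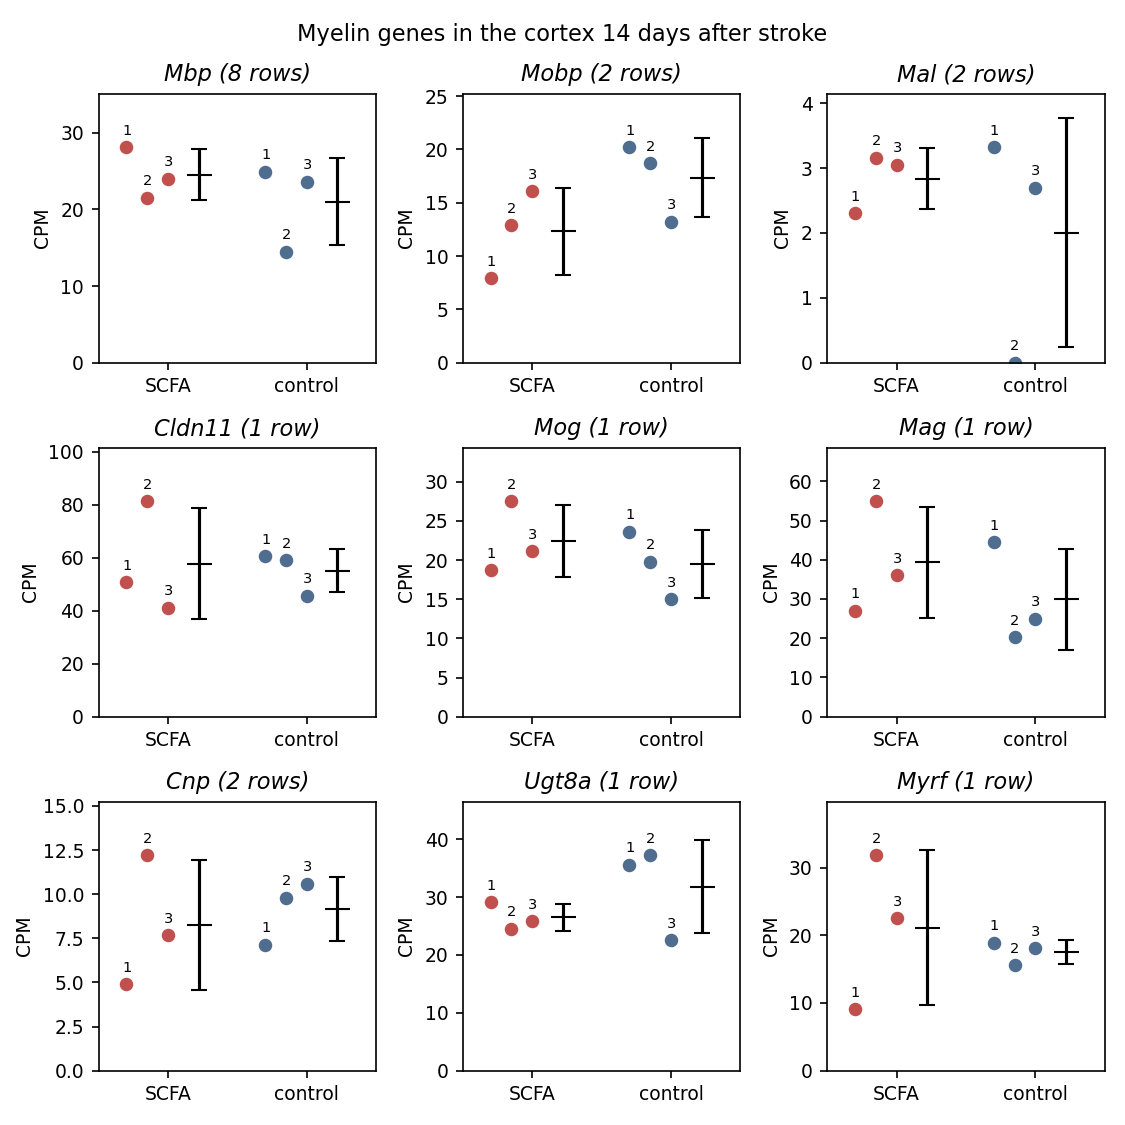
CPM of each of the 9 genes is plotted by library, with the replicate number above each point, SCFA in red and control in blue, and the bar gives the mean and SD of the group (n = 3). The groups overlap in every panel, from Cldn11 at 41.1 to 81.3 CPM down to Mal at 0 to 3.32 CPM.

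Mbp, Mal and Mobp encode proteins of compact myelin, but the Mbp value is that of NM_001025245 alone. It does not measure the classic myelin transcripts apart. Mbp and Mal were lowest in control 2 and Mobp was lowest in SCFA 1. Mbp had 28.1, 21.5 and 24 CPM in SCFA 1 to 3, against 24.9, 14.5 and 23.6 CPM in controls 1 to 3. Controls 1 and 3 lay within the SCFA range and control 2 lay below it. Its log2 fold change was 0.22 (SE 0.257, 95% interval -0.34 to 0.77, adjusted p = 0.95), a fold of 1.16. Without control 2 it was 0.01.

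Mobp went the other way in value, with 7.94, 12.9 and 16.1 CPM in SCFA 1 to 3, against 20.2, 18.7 and 13.2 CPM in controls 1 to 3. SCFA 2 and 3 came close to or passed control 3, and SCFA 1 was the lowest of the 6. Of the 9 genes it had the smallest p, 0.142 before adjustment, with a log2 fold change of -0.49 (SE 0.315, interval -1.17 to 0.19, adjusted p = 0.892). Leaving out 1 library at a time gave -0.73 to -0.26, so its direction did not hang on a single library, and without both SCFA 2 and control 2 it was -0.47.

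Mal was the least counted of the 9, with 22, 46 and 41 counts in SCFA 1 to 3, against 41, 0 and 27 counts in controls 1 to 3. In CPM these were 2.3, 3.16 and 3.05 with SCFA and 3.32, 0 and 2.7 in controls. Apart from the 0 in control 2, where 3 counts would stand for 0.346 CPM, the values ran from 2.3 to 3.32. Its log2 fold change of 0.49 (SE 0.971, interval -1.61 to 2.58, adjusted p = 0.963) became -0.08 without control 2 and -0.17 without both SCFA 2 and control 2. It was 1.54 with limma-voom, 1.06 with the replicate block and 1.05 without control 1.

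Cldn11 (chr3:31149920-31164326) encodes the claudin that forms the tight junctions between the wraps of central myelin. It had 50.8, 81.3 and 41.1 CPM in SCFA 1 to 3, against 60.6, 59 and 45.7 CPM in controls 1 to 3. Both the highest and the lowest value were SCFA libraries, and the controls lay between them. The means of 57.7 ± 21 CPM with SCFA and 55.1 ± 8.16 CPM in controls (SD, n = 3 each) gave a log2 fold change of 0.07 (SE 0.237, interval -0.44 to 0.58, adjusted p = 0.979). It was -0.26 without SCFA 2, -0.05 without control 3 and -0.22 without both SCFA 2 and control 2.

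Mog (chr17:37010740-37023398) and Mag (chr7:30899175-30914922) encode the surface glycoproteins of the sheath. Mog sits on its outermost face and is a known target of demyelinating antibodies, and Mag sits on the innermost wrap facing the axon. Mog had 18.7, 27.5 and 21.1 CPM in SCFA 1 to 3, against 23.6, 19.8 and 15 CPM in controls 1 to 3. Mag had 27, 54.9 and 36.1 CPM with SCFA, against 44.5, 20.3 and 25 CPM in controls. For both genes SCFA 2 was highest, control 1 came second and SCFA 1 was the lowest of the SCFA libraries. The log2 fold change was 0.21 for Mog (SE 0.259, interval -0.35 to 0.76, adjusted p = 0.952) and 0.39 for Mag (SE 0.31, interval -0.28 to 1.06, adjusted p = 0.91). Without both SCFA 2 and control 2, Mog was at 0.04 and Mag at -0.14.

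Cnp summed over its 2 rows had 4.91, 12.2 and 7.67 CPM in SCFA 1 to 3, against 7.12, 9.8 and 10.6 CPM in controls 1 to 3. The SCFA libraries enclosed the controls, with SCFA 2 highest and SCFA 1 lowest. The log2 fold change was -0.15 (SE 0.394, interval -1 to 0.71, adjusted p = 0.973), and 0.12 without SCFA 1.

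Ugt8a (chr3:125865272-125938682) encodes the transferase that makes galactosylceramide, the signature lipid of myelin. Its level was 29.1, 24.5 and 25.8 CPM in SCFA 1 to 3, against 35.6, 37.2 and 22.5 CPM in controls 1 to 3. Controls 1 and 2 lay above all SCFA libraries and control 3 lay below them. The log2 fold change was -0.26 (SE 0.233, interval -0.77 to 0.24, adjusted p = 0.914), and it stayed between -0.46 and -0.14 with 1 library left out.

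Myrf (chr19:10208271-10240777) encodes the membrane-bound factor that, once cleaved, turns on myelin genes in maturing oligodendrocytes. Among the 8 genes counted in every library it varied most within a group: 9.09, 31.8 and 22.5 CPM in SCFA 1 to 3, a coefficient of variation of 54.1%, against 18.9, 15.6 and 18.1 CPM in controls 1 to 3, one of 9.89%. SCFA 1 was below and SCFA 2 and 3 above all controls. The log2 fold change was 0.28 (SE 0.36, interval -0.5 to 1.05, adjusted p = 0.956), -0.14 without SCFA 2 and -0.22 without both SCFA 2 and control 2.

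**Figure D4:**
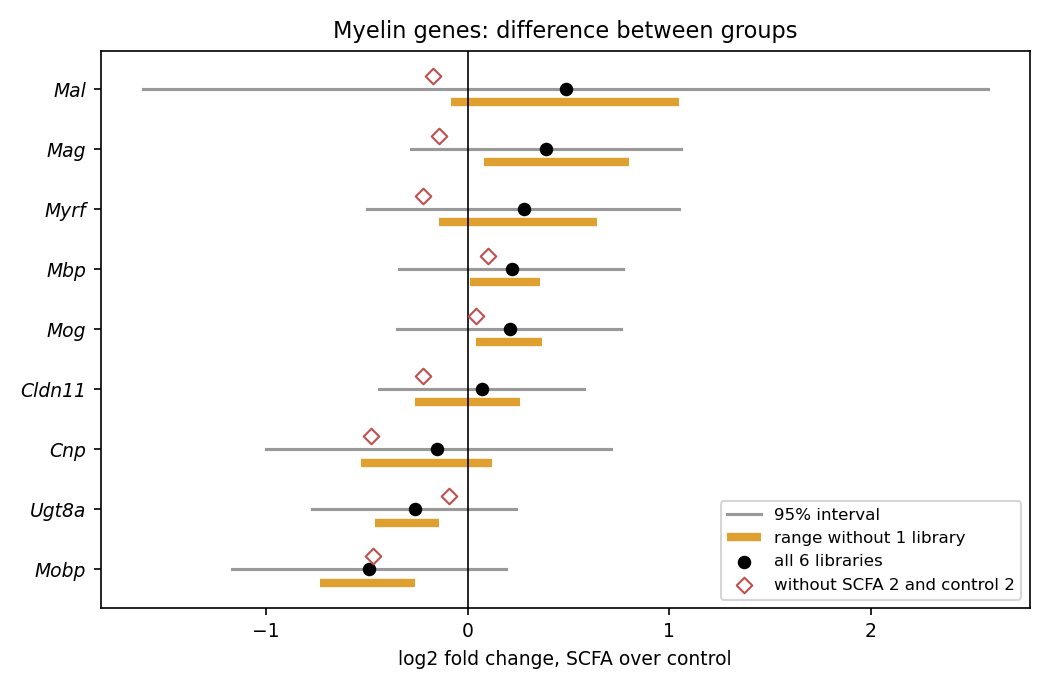
The log2 fold change of each gene, SCFA over control, is plotted as a black point with its 95% interval, with the range over fits that leave out 1 library in orange and the value without SCFA 2 and control 2 as an open diamond. Each interval spans 0, and the diamonds of Mal, Mag, Myrf and Cldn11 lie below 0 while their points lie above it.

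The interval of each fold shows what these 6 libraries could resolve. It was 0.586 to 1.18 times the control level for Ugt8a and 0.737 to 1.49 for Cldn11, the narrowest on a log scale. For Mobp it was 0.444 to 1.14 and for Mag 0.824 to 2.08. For Mal it was 0.328 to 5.98, which holds both a fall and a rise of several times. A p above the threshold does not show that the groups were alike.

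The 9 genes did not share a single profile over the libraries. The highest of the 6 values was in SCFA 2 for 5 genes (Mog, Mag, Cnp, Cldn11 and Myrf), in control 1 for Mobp and Mal, in SCFA 1 for Mbp and in control 2 for Ugt8a. The lowest was in SCFA 1 for Mobp, Cnp and Myrf, in control 2 for Mbp, Mag and Mal, in control 3 for Mog and Ugt8a, and in SCFA 3 for Cldn11. Summed over the 9 genes, CPM was 178, 270 and 197 in SCFA 1 to 3, against 239, 195 and 177 in controls 1 to 3. The score, the mean log2 CPM minus each gene's mean over the 6 libraries, was -0.26, 0.39 and 0.09 in SCFA 1 to 3, against 0.27, -0.43 and -0.06 in controls 1 to 3. Without Mal, control 2 moved to -0.06, so the low score of that library rested on the 0 of Mal. Over the 36 pairs of genes, Pearson's r across the 6 libraries ran from -0.61 (Mal and Ugt8a) to 0.89 (Mbp and Mal) with a median of 0.18, and 23 pairs were above 0. Both extremes involve the 0 of Mal in control 2, where Mbp was also lowest and Ugt8a highest. They were not computed without that library, so they do not show which genes are most alike. Mog and Mag had r = 0.81 and Cnp and Myrf 0.77. These are descriptions over 6 libraries that share their depth and composition.

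By the same measure the 10 genes most like the score of the 9 were Nupl2, Zfp235, Supt7l, Pxmp4, Shkbp1, Numa1, Fra10ac1, Zfp592, Itpk1 and Kcne1l, with r of 0.971 to 0.987 over the 6 libraries. None of them is in any list of cell type genes used here. When Mal was left out of the score, 0 of these 10 were among the 10 most like genes. Of 18 other mature oligodendrocyte genes that could be ranked, 1 (5.56%; Hapln2, r = 0.96) had r above 0.9, against 107 of 9537 ranked genes (1.12%). Their median r was 0.39, against 0.04 for all ranked genes. These r values were taken with Mal in the score and were not recomputed without it.

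Promoter sequence was at hand from RefSeq (GRCm38.p6, 250 bases before to 50 after a start) for 7 of the 9 genes, in 9 windows, and for neither Mbp nor Myrf. The core CTGGNAC, which Myrf is known to bind, matched in 4 of the 9 windows on either strand, 3 genes in all (Cnp, Mag and Mog), and in 19.3% of all 32851 windows of the table. The Sox core ACAAAG matched in 4 of 9 (windows of Cnp, Mag and Mobp) and in 18.7% of all, and the E-box CAGCTG in 0 of 9 and in 16.3% of all. For both the Myrf and the Sox core, 2 of the 4 windows are Mag windows that overlap and share the same matches. The windows of Mag and Mobp are shown because their genes had the highest and the lowest log2 fold change among the 8 genes counted in all 6 libraries. For Mag, the window whose start lies nearest the counted transcript is at chr7:30914814-30915113 on the minus strand, with 65.0% G and C. For Mobp it is at chr9:120149492-120149791 on the plus strand, with 43.3% G and C beside a median of 52.7% for all windows. Capitals mark the matches: 2 of the Myrf core and 1 of the Sox core in Mag, and 6 of the Sox core in Mobp, each on the opposite strand as CTTTGT.
Mag promoter: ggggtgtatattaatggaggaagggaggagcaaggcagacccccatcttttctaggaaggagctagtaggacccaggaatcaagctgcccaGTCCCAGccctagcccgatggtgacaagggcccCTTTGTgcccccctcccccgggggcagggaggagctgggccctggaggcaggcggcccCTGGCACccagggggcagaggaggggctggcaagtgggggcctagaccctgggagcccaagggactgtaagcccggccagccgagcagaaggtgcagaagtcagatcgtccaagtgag
Mobp promoter: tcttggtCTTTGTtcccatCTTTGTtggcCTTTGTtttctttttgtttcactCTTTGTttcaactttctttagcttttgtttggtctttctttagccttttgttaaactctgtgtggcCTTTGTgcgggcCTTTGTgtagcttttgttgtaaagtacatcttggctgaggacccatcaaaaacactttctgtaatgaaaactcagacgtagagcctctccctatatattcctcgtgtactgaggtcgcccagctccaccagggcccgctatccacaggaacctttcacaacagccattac
Both genes missed the test, and the matches are letters in a window and not sites shown to be bound.

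Other genes of the pathway were read from 7 lists. They hold 101 genes of the oligodendrocyte lineage and of myelin, of which 68 could be tested. Of 54 listed genes with 1 row 52 were tested, but of 46 with several rows only 16, and 10 listed genes stood at 0, Klk6 among them. None of the 68 passed the test (0 by edgeR, DESeq2 and limma-voom). At an unadjusted p under 0.05, 8 (11.8%) were higher and 1 lower by edgeR, 8 and 1 by DESeq2 and 8 and 0 by limma-voom, where 2.97% of all genes were higher and 2.79% lower by edgeR. The 8 higher genes were Trf, Pllp, Degs1, Galc, Sox10, Id4, Gpr17 and Tns3. The lower gene was Sox5, which passed the low-count filter only through the controls. The median log2 fold change over the 68 was 0.17.

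Of 21 other mature oligodendrocyte genes tested, 15 were above 0 and 6 below, with a median of 0.13, which was -0.02 to 0.32 with 1 library left out and -0.03 without both SCFA 2 and control 2. The best counted were Tppp, a tubulin-binding protein of oligodendrocytes, at 507 ± 35.6 CPM with SCFA and 585 ± 15.7 CPM in controls with every SCFA library below every control (log2 fold change -0.2, adjusted p = 0.889), and Omg, a myelin glycoprotein that neurons also make, at 115 ± 18.8 CPM with SCFA and 114 ± 16.6 CPM in controls (SD, n = 3 each). Trf, the iron carrier transferrin that oligodendrocytes make in the brain, had 72.6, 145 and 102 CPM in SCFA 1 to 3, against 74.6, 53.5 and 64.5 CPM in controls 1 to 3. SCFA 1 lay below control 1 and the other SCFA libraries above all controls. Its log2 fold change was 0.73 (SE 0.227, adjusted p = 0.864). Pllp, the proteolipid plasmolipin, had 18.8, 18 and 17.8 CPM with SCFA, against 15.9, 9.11 and 8.01 CPM in controls, with no overlap between the groups (0.72, SE 0.308, adjusted p = 0.864). Trf and Pllp are named for the smallest p of this list, and 6.42% of all genes had every SCFA library above every control.

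Of 10 tested genes of galactolipid synthesis and turnover, 8 were above 0 and 2 below, with a median of 0.28. The median was 0.07 without SCFA 2, 0.14 without control 2 and -0.05 without both, so its direction rested on these libraries. Degs1, the desaturase that makes ceramide, had 41.4, 53.3 and 35.2 CPM in SCFA 1 to 3, against 28.6, 22.8 and 29.7 CPM in controls 1 to 3 (log2 fold change 0.68, SE 0.217, adjusted p = 0.864). Galc, the lysosomal enzyme that breaks galactosylceramide down and so works against Ugt8a, had 28.1, 30.3 and 30 CPM with SCFA, against 19.3, 23.6 and 17.5 CPM in controls (0.55, SE 0.219, adjusted p = 0.864). For both genes every SCFA library lay above every control. They are named for the smallest p of the list, and 6.42% of all genes had every SCFA library above every control. Ugt8a itself was at -0.26, and an opposition between it and Galc was not tested. Ugcg, which makes glucosylceramide, was at -0.09 and Smpd1, acid sphingomyelinase, at 0.27.

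Among regulators, 7 of 8 tested activators of myelin genes were above 0 and 1 below, with a median of 0.26 (0.18 to 0.4 with 1 library left out). Sox10, the factor that drives the oligodendrocyte program and Myrf itself, had 10.6, 17.6 and 10.8 CPM in SCFA 1 to 3, against 9.07, 2.88 and 8.01 CPM in controls 1 to 3 (log2 fold change 0.96, SE 0.425, adjusted p = 0.864). Zfp488 had 3.55, 3.58 and 3.72 CPM with SCFA, against 1.94, 0.115 and 1.6 CPM in controls (1.54, SE 0.836, adjusted p = 0.889). In both genes the groups did not overlap and control 2 was lowest. Both are named for the smallest p of the list, and 6.42% of all genes had every SCFA library above every control. Yy1 was at 0.24 and Qk, an RNA-binding protein that handles myelin mRNAs, at -0.09.

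Of 8 tested inhibitors of maturation, 5 were above 0 and 3 below, with a median of 0.17 (0.06, without SCFA 1, to 0.32, without control 1). Id4 had 44.2 ± 5.35 CPM with SCFA and 28.5 ± 7.31 CPM in controls (SD, n = 3 each; 0.63, SE 0.226, adjusted p = 0.864). Gpr17, a receptor of cells about to mature, had 7.94, 19.7 and 13.5 CPM in SCFA 1 to 3. In controls 1 to 3 it had 5.75, 6.34 and 9.21 CPM, so SCFA 1 lay below control 3. Its log2 fold change was 0.96 (SE 0.382, adjusted p = 0.864), and it is named after its value was seen. Sox5, a gene of 3 rows, had 0.313, 0.619 and 0.447 CPM in SCFA 1 to 3, against 2.19, 5.99 and 1.1 CPM in controls 1 to 3 (-2.7, SE 0.944, adjusted p = 0.864). Its SCFA 1 value was 3 counts, the floor. Sox5 passed the low-count filter only through the controls, where it was high, so its fold is not independent support for a difference. Id2 was at -0.08 and Sox11 at 0.21.

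The remaining lists bear on the cells before and the axon beside the sheath. Of 7 tested genes of precursors and newly formed oligodendrocytes 6 were above 0, with a median of 0.38, which was 1.13 without control 1 and 0.23 without both SCFA 2 and control 2. Tns3 had 91.8 ± 14.3 CPM with SCFA and 70.4 ± 3.99 CPM in controls (SD, n = 3 each; 0.38, SE 0.163, adjusted p = 0.864), C1ql1 was at 0.97 (adjusted p = 0.915) and Tmem163 at -0.06. Of 12 tested genes of the node and paranode, where the sheath meets the axon, 8 were above 0, with a median of 0.1, and Cntn2 at 0.29, Kcna1 at 0.15, Epb41l3 at 0.02 and Kcna2 at -0.08 all missed the test. Of 7 genes of peripheral myelin, which Schwann cells make, Pmp2 and Ncmap stood at 0 in all 6 libraries, Pmp2 with 1 row, and the 2 tested, Egr2 and Gldn, were at -0.32 and -0.54. The median of these 2 genes, -0.43, became 0.52 without control 2 and 0.73 without both SCFA 2 and control 2.

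Markers of other cell types also differed in level between the libraries, and their part in the values above was not tested. Of 11 tested genes of microglia and macrophages 10 were above 0 and 1 passed the test, Laptm5 (log2 fold change 1.29, adjusted p = 0.0264 by edgeR's quasi-likelihood test). That call was lost with limma-voom and without SCFA 1, SCFA 2, SCFA 3, control 1 or control 3, and Ctss, with 2 rows, stood at 0. Laptm5 is named after its value was seen. By DESeq2 5 of the 11 passed as higher, where 14 of all 11969 genes did. By edgeR 8 of the 11 were higher at an unadjusted p under 0.05, where 2.97% of all genes were. The median log2 fold change of the 11 was 0.85, and 0.7 to 0.97 with 1 library left out. The summed level of that list was 639.2 to 956.6 CPM with SCFA and 371.2 to 490.9 CPM in controls. Of 9 tested astrocyte genes 8 were above 0 and 0 passed by edgeR. By DESeq2 2 passed, and by edgeR 4 had an unadjusted p under 0.05, to be set beside the same shares of all genes. The summed level of the astrocyte list was 1147 to 1647 CPM in SCFA and 827.6 to 984.5 CPM in control libraries. Summed over all 10 listed striatal neuron genes, Penk the best counted, CPM was 72.19, 400.1 and 83.52 CPM in SCFA 1 to 3, against 133.9, 91.4 and 74.08 CPM in controls 1 to 3. SCFA 2, the library where 5 of the 9 myelin genes were highest, also had the highest sum of striatal genes. All 8 genes of the exocrine pancreas, an organ apart from the labelled tissue, were lower with SCFA. Summed over the 8 genes, the level was 0.275 to 1.149 CPM in SCFA libraries and 32.44 to 336.7 CPM in controls. All 8 passed by edgeR, 7 by DESeq2 and 0 by limma-voom, and they are 8 of the 9 genes called lower by edgeR. In this direction 0 genes of the table passed without SCFA 1, SCFA 2 or SCFA 3 and 1 without control 1, while the median log2 fold change of the 8, -8.22, stayed between -9.46 and -7.68 with 1 library left out. This list was chosen with earlier results of these data known. Its genes passed the low-count filter through the controls alone, so their calls describe the libraries and are not independent support. The neuronal list, with Camk2a and Slc17a7 best counted, had 3628 to 3930 CPM with SCFA and 3267 to 3757 CPM in controls, and 0 of its 11 tested genes passed. For the endothelial list the median log2 fold change was 0.4 over 5 tested genes, and 0.45 to 0.75 with 1 library left out. For choroid plexus and ependyma it was 0.58 over only 3 tested genes, and 0.48 to 1.38 with 1 library left out. Without both SCFA 2 and control 2 these medians were 0.35 and 0.12. In both lists 0 genes passed the test, and Pecam1, Tek, Pdgfrb, Abcc9 and Folr1, all of several rows, stood at 0.

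**Figure D5:**
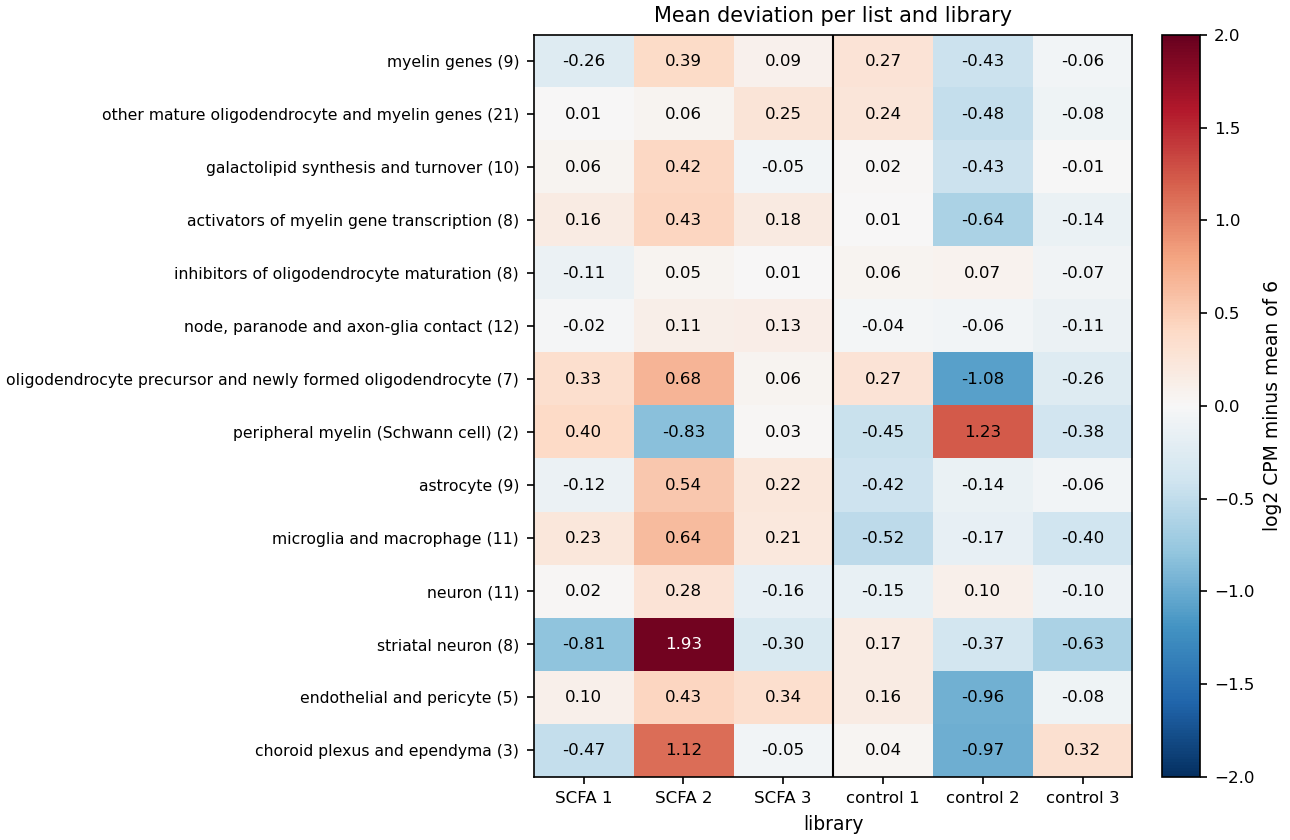
Each cell gives the mean over a list's tested genes (their number in brackets) of log2 CPM minus the gene's mean over the 6 libraries, with SCFA libraries left of the line and control libraries right of it. The 9 myelin genes run from -0.43 in control 2 to 0.39 in SCFA 2, and SCFA 2 also holds the highest score of the striatal list, 1.93.

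Control 2 had the lowest score in several lists, but not in all. It was -0.48 for the other mature oligodendrocyte genes, where the remaining 5 libraries lay between -0.08 and 0.25, and -1.08 for precursors and newly formed cells, where they lay between -0.26 and 0.68. For activators it was -0.64 beside -0.14 to 0.43, and for galactolipid genes -0.43 beside -0.05 to 0.42. The endothelial list and that of choroid plexus and ependyma were also lowest there, at -0.96 and -0.97. For inhibitors of maturation and for peripheral myelin, control 2 was the highest of the 6, at 0.07 and 1.23. Without control 2, the median log2 fold change was -0.02 for the other mature genes, 0.18 for activators and 0.35 for precursors and newly formed cells, and 5 of the 9 myelin genes were above 0.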

How the data were processed

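Total RNA from snap-frozen cortex was made into libraries with an Ovation Human FFPE RNA-Seq kit, per the labels' protocols. The authors deposited raw counts of reads per RefSeq transcript, 34755 rows in 6 libraries. CASAVA 1.8.2, featureCounts and the build mm10 are named in the submitters' processing notes, while aligner, strand setting and handling of shared reads are not stated there. RefSeq (GRCm38.p6) gave a symbol to 34424 rows (99.05%), which were summed per symbol, and 33965 were paired with a GENCODE M21 transcript for the own bases. edgeR 4.0.16 in R 4.3.3 compared SCFA with control: filterByExpr (minimum count 10, minimum total 15), TMM, the two-sided quasi-likelihood F test over all 11969 genes, Benjamini-Hochberg adjustment and a threshold of 0.05, with no covariate. Intervals of fold changes are 95% intervals, and scores use a prior count of 2. The scripts were tested on simulated data. Genes were named from the 9 members, from each oligodendrocyte or myelin list the 2 best counted and the 2 with the smallest p, from each other list the 2 best counted, and the 10 genes most like the members' score among those with a mean log2 CPM of at least 1. The members and lists were chosen with earlier results of these data known. Alternatives were other scalings, filters and tools (DESeq2 1.42.0, limma-voom 3.58.1), the replicate block, structural RNA removed, unsummed rows, a threshold of 0.1 and libraries left out. Some genes of these lists are not reported here.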

Additional observations from a re-analysis of the deposited data

How the results depend on the processing

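The 9 myelin genes were refitted under 18 settings, 162 values in all, with 0 calls, a lowest adjusted p of 0.754 and 152 values in the main direction. A threshold of 0.1 also gave 0 calls. Mbp, Mog, Mobp and Ugt8a kept their direction in all 18. For unsummed rows, Cnp is counted by NM_001146318 (-0.37), while its other row stood at 0.08. The 10 reversed values were Cnp 0.09 (total counts) and 0.12 (without SCFA 1), Mal -0.08 (without control 2), Cldn11 -0.26 and Myrf -0.14 (without SCFA 2), Cldn11 -0.05 (without control 3), and, without both SCFA 2 and control 2, Mag -0.14, Mal -0.17, Cldn11 -0.22 and Myrf -0.22. The cause was not tested. With 1 library left out the values ran from 0.08 to 0.8 for Mag, -0.53 to 0.12 for Cnp, -0.08 to 1.05 for Mal, -0.26 to 0.26 for Cldn11 and -0.14 to 0.64 for Myrf. The median over the 9 genes was -0.17 without both these libraries and -0.14 to 0.34 with 1 library left out. In 2 alternatives added after the data had been seen it was 0.14 without Mal and 0.21 over the 5 genes of 1 row. Total counts moved the median of all genes to 0.18, and that of the 9 to 0.34. Of all genes, 1 higher and 9 lower in the main test became 30 and 25 with no filter, 14 and 17 with DESeq2, 0 and 0 with limma-voom (421 and 384 at an unadjusted p under 0.05), 0 to 8 and 0 to 13 with 1 library left out, and 14 higher without SCFA 2 and control 2. Same-numbered libraries had correlations of -0.00206, 0.0101 and -0.00525 in their deviations, so no shared signal was seen. With 3 libraries per group this cannot show that the samples were not handled in pairs. The replicate block gave 10 genes higher, 12 lower, 0 of the 9 myelin genes called and a median of 0.12. Depth limits Mal most, whose 177 counts leave a wide interval, and the counting of transcripts limits Mbp, Mobp, Cnp and Mal, whose shared bases may not be counted.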
